A study of Setaria viridis with 15 samples.

Results

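The genes described here are 10 members of the plant circadian clock, measured by RNA-seq in the shoots of Setaria viridis, a C4 grass used in the laboratory as a relative of maize and sorghum. They were taken by identifier from the 28032 genes of the deposited count table and are the ones annotated as REVEILLE 2 (LOC117833204), a pair annotated as REVEILLE 6 (LOC117852333, called (a) here, and LOC117853788, called (b)), PRR73 (LOC117837064), a pair annotated as PRR37 (LOC117842219, called (a), and LOC117857816, called (b)), PRR95 (LOC117844604), GIGANTEA (LOC117857839), ELF3-like 2 (LOC117848663) and ELF4-LIKE 4 (LOC117840261). All 10 were among the 20310 genes with enough counts to be tested. They are not the whole clock: a further REVEILLE 6, CCA1, PCL1 and other annotated clock genes are given after them.

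The plant clock is a loop of transcriptional repressors and activators that act in turn over the day. As worked out mostly in Arabidopsis, MYB-like factors of the CCA1, LHY and REVEILLE family act around dawn, pseudo-response regulators (PRR proteins) follow through the day and repress the dawn genes, and GIGANTEA and the evening complex of ELF3, ELF4 and LUX act towards dusk. In cereals several of these genes, PRR37, GIGANTEA and ELF3 among them, also set flowering time by day length.

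Wild-type seedlings were transferred at 5 days of age, 2 to a plate, to a larger dish of plant medium that enclosed a small dish of LB bacterial medium. Co-culture, or the mock treatment, began 2 days after this transfer. The small dish was spread with 20 μL of a suspension of the bacterial isolate AI2.2-A (4 libraries), CTB P6B8 (3 libraries) or MTS P5D6 (4 libraries), or was left without bacteria as the mock control (4 libraries). Every group, the control included, was sealed in, grew beside the LB dish and was kept for 7 days. The photoperiod was 12 h at 250 μmol m⁻² s⁻¹, with 28 °C in the light and 25 °C in the dark. The question of the study is the response to volatile compounds of the bacteria, which shared the air of the plate with the plants. The labels call the libraries biological replicates and do not say how many plants or plates went into each, and name no species for the isolates.

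The sources used here do not give the hour of harvest. Clock transcripts rise and fall each day, so a change in the level of a rhythm and a change in its timing cannot be told apart at a single harvest, and a difference between groups in the time of collection cannot be told apart from either. In bulk shoots, fewer cells of a type and less RNA per cell cannot be told apart either.

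Total counts ran from 13852517 to 20556455 per control library, 18222557 to 23919167 per AI2.2-A library, 17118899 to 25123025 per CTB P6B8 library and 16755755 to 19453085 per MTS P5D6 library. The 10 clock genes together took 0.0945% to 0.113% of the counts in the controls, 0.109% to 0.150% in the AI2.2-A libraries, 0.112% to 0.142% in the CTB P6B8 libraries and 0.162% to 0.176% in the MTS P5D6 libraries, of which only the last lay apart from the controls. In a principal component analysis (40.8% and 24.5% of variance on the leading components) AI2.2-A replicate 4 lay at -21.2 on the second component, beside the CTB P6B8 libraries (-21.2 to -7.54) and apart from the other AI2.2-A libraries (-54.3 to -45.6). Plastid-encoded genes took 0.184% of the counts in CTB P6B8 replicate 3 and 0.0209% to 0.0652% in the other 14 libraries. The summed level of 27 green shoot markers was 26307 to 33937 CPM (counts scaled to a common library size) in the controls, 20661 to 26992 in the AI2.2-A libraries, 18298 to 23065 in the CTB P6B8 libraries and 17242 to 19842 in the MTS P5D6 libraries. For 22 seed-type markers the sum was 162 to 199.9 CPM in the controls, 249 to 324, 452 to 655 and 361 to 508 CPM with the isolates in the same order. The sum of 9 root markers was 109 to 127 CPM in the controls and 84.2 to 118 CPM over the exposed libraries, and that of 8 pollen and flower markers was 57.7 to 69.8 and 30.8 to 53.3 CPM. None of the genes on these lists was at 0 in all libraries. Seed-type sums lay above the controls and pollen and flower sums below them in every exposed group, green shoot sums lay below them with CTB P6B8 and with MTS P5D6 and overlapped them with AI2.2-A, and root sums overlapped or lay just below them. By gene, 6 of 26 tested green shoot markers were called higher and 6 lower with AI2.2-A. These counts were 6 and 9 with CTB P6B8 and 6 and 15 with MTS P5D6. For 13 tested seed-type markers, late embryogenesis genes among them, the counts were 4 and 2, 7 and 1, and 9 and 2. For 6 tested root markers they were 2 and 2, 1 and 2, and 0 and 3. For 3 tested pollen and flower markers they were 0 and 1 with each isolate. Calls and the shares over all genes are given below. The part of these markers in the results below was not tested.

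In these shoots the 3 dawn-class genes among the 10 were lower and GIGANTEA was higher with each isolate than in the mock control. REVEILLE 2 stood at 0.318, 0.470 and 0.361 of its control level (AI2.2-A given before CTB P6B8, and MTS P5D6 last, here and below), and both REVEILLE 6 genes fell by smaller amounts. GIGANTEA stood 2.08-fold, 1.89-fold and 3.01-fold above control in the same order. Several other daytime and evening genes were called against control with some isolates only. PRR95 was 2.06-fold above control with MTS P5D6, ELF3-like 2 fell with AI2.2-A, and ELF4-LIKE 4 rose with CTB P6B8 and MTS P5D6. Such a pattern is not by itself a difference between isolates. In the edgeR test described below, ELF4-LIKE 4 did not pass between AI2.2-A and MTS P5D6 (adjusted p = 0.0755). ELF3-like 2 did not pass between AI2.2-A and CTB P6B8 (adjusted p = 0.254). The 3 comparisons with control share the same 4 control libraries, so they are given side by side and are not independent of each other.

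**Figure D1:**
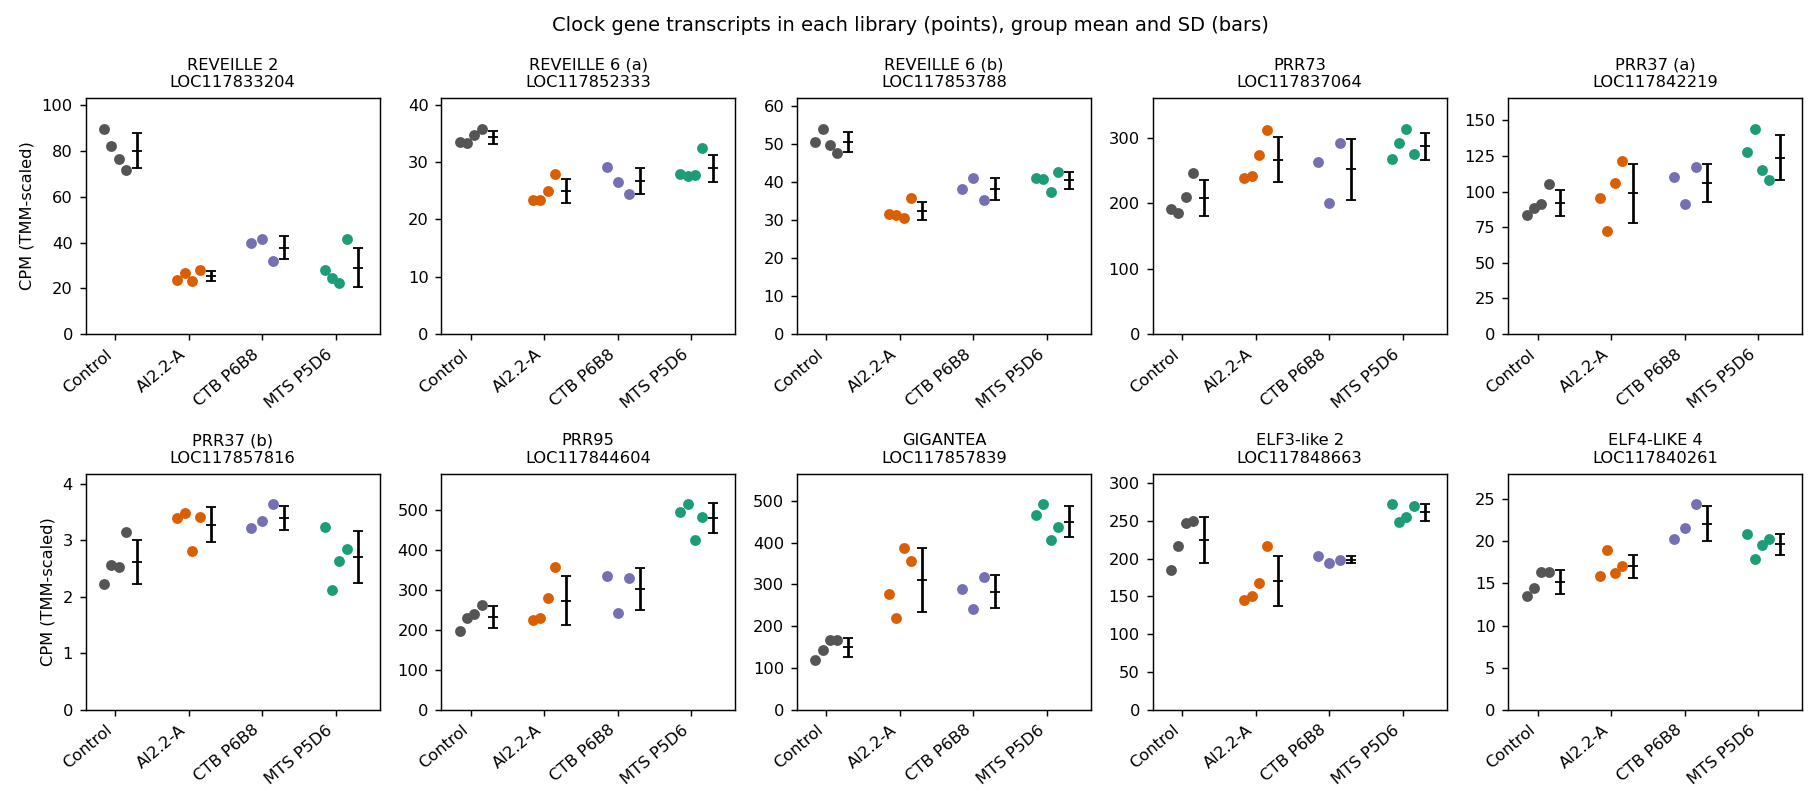
Level of each of the 10 clock genes in every library, in CPM on a linear axis, with 1 point per library, grouped by treatment, and bars for each group's mean and SD. All 11 exposed libraries lie below the 4 controls for REVEILLE 2 and above them for GIGANTEA, while all libraries lie between 2.12 and 3.63 CPM for PRR37 (b).

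The dawn-class genes come first. REVEILLE 2 encodes a MYB-like factor related to CCA1, and raised levels of its Arabidopsis counterpart disturb circadian rhythms. It stood at 89.8, 82.4, 76.6 and 71.9 CPM in control replicates 1 to 4, at 23.8, 26.9, 23.2 and 27.9 CPM in the AI2.2-A libraries, at 39.7, 41.6 and 31.9 CPM in the CTB P6B8 libraries and at 27.9, 24.5, 22.2 and 41.4 CPM in the MTS P5D6 libraries. Every exposed library was below every control, and MTS P5D6 replicate 4 was well above the other 3 of its group. Group means were 80.2 ± 7.71 CPM (SD, n = 4) for the controls, 25.4 ± 2.31 (n = 4) for AI2.2-A, 37.7 ± 5.12 (n = 3) for CTB P6B8 and 29.0 ± 8.58 (n = 4) for MTS P5D6. The log2 fold change against control was -1.65 ± 0.15 (SE; adjusted p = 9.01e-07) with AI2.2-A, -1.09 ± 0.16 (adjusted p = 8.45e-05) with CTB P6B8 and -1.47 ± 0.15 (adjusted p = 1.42e-06) with MTS P5D6. All adjusted p-values in the text come from edgeR's quasi-likelihood test, two-sided, with Benjamini-Hochberg adjustment over the 20310 genes tested, and a gene is called at an adjusted p under 0.05. These p-values set the difference between groups against the spread between libraries as labelled.

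The REVEILLE 6 genes belong to the branch of the family that, in Arabidopsis, activates evening genes. REVEILLE 6 (a) stood at 33.5, 33.3, 34.7 and 35.8 CPM in the controls, at 23.4, 23.5, 24.9 and 27.8 CPM with AI2.2-A, at 29.1, 26.5 and 24.4 CPM with CTB P6B8 and at 27.8, 27.6, 27.7 and 32.5 CPM with MTS P5D6. REVEILLE 6 (b) stood at 50.5, 54.0, 49.8 and 47.7 CPM in the controls, at 31.5, 31.4, 30.5 and 35.8 CPM with AI2.2-A, at 38.2, 41.0 and 35.3 CPM with CTB P6B8 and at 40.9, 40.7, 37.5 and 42.5 CPM with MTS P5D6. For both genes every exposed library was below every control library. Their log2 fold changes against control were -0.46 ± 0.08 and -0.65 ± 0.07 with AI2.2-A (adjusted p = 0.000229 and 4.63e-06), -0.36 ± 0.09 and -0.41 ± 0.08 with CTB P6B8 (adjusted p = 0.00298 and 0.000552), and -0.25 ± 0.08 and -0.32 ± 0.07 with MTS P5D6 (adjusted p = 0.0157 and 0.0013). The order of the means was the same for the pair, with the controls highest, then MTS P5D6, then CTB P6B8, and AI2.2-A lowest, and of neighbours in that order the test separated only the controls from MTS P5D6. REVEILLE 6 (a) with MTS P5D6 was the weakest of these calls, and it was lost when genes of low count were kept in the test (adjusted p = 0.063).

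The log2 ratio of REVEILLE 6 (a) to REVEILLE 6 (b) within a library averaged -0.56 in the controls, -0.37 in the AI2.2-A libraries, -0.51 in the CTB P6B8 libraries and -0.48 in the MTS P5D6 libraries. All 4 AI2.2-A libraries lay between -0.43 and -0.29, and the controls between -0.70 and -0.41, so these ranges overlapped. Near-identical copies can share reads in counting, and the sources used here do not say how such reads were treated.

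The pseudo-response regulators of the day were less uniform. PRR73, in grasses the close relative of PRR37, stood at 192, 185, 209 and 246 CPM in the controls, at 239, 242, 274 and 313 CPM with AI2.2-A, at 264, 201 and 292 CPM with CTB P6B8 and at 268, 292, 315 and 276 CPM with MTS P5D6. Only the MTS P5D6 libraries all exceeded the highest control, and CTB P6B8 replicate 2 lay within the control range. PRR73 rose with AI2.2-A (log2 fold change 0.36 ± 0.12, adjusted p = 0.0221) and with MTS P5D6 (0.47 ± 0.12, adjusted p = 0.00411), and its value with CTB P6B8 was 0.28 ± 0.13 (adjusted p = 0.0921). The AI2.2-A call was lost without control replicate 1 (adjusted p = 0.0588), control replicate 2 (0.071) or AI2.2-A replicate 4 (0.0766). Conversely, the CTB P6B8 value passed the threshold without CTB P6B8 replicate 2 (log2 fold change 0.42, adjusted p = 0.0153), without control replicate 4 (0.37, adjusted p = 0.0361), under total count scaling (0.38, adjusted p = 0.0216) and with limma-voom (0.31, adjusted p = 0.0323).

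PRR37, whose counterparts in sorghum, rice and barley delay or advance flowering by day length, was present as an abundant and a scarce copy. PRR37 (a) stood at 83.3, 88.7, 91.5 and 105 CPM in the controls, at 95.7, 72.3, 106 and 121 CPM with AI2.2-A, at 111, 91.1 and 117 CPM with CTB P6B8 and at 128, 144, 115 and 108 CPM with MTS P5D6. The MTS P5D6 libraries lay above all controls by a small margin, and the other exposed groups overlapped the controls. PRR37 (a) rose with MTS P5D6 (log2 fold change 0.43 ± 0.14, adjusted p = 0.015), a call lost without MTS P5D6 replicate 2 (0.34, adjusted p = 0.0524). The values with AI2.2-A and CTB P6B8 were 0.10 ± 0.14 (adjusted p = 0.562) and 0.21 ± 0.15 (adjusted p = 0.266), with 95% intervals of -0.20 to 0.40 and -0.11 to 0.53.

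PRR37 (b) was read by 33 to 94 counts per library and was called in none of the 6 comparisons. It stood at 2.23, 2.56, 2.52 and 3.15 CPM in the controls, at 3.39, 3.49, 2.81 and 3.41 CPM with AI2.2-A, at 3.22, 3.34 and 3.63 CPM with CTB P6B8 and at 3.23, 2.12, 2.63 and 2.84 CPM with MTS P5D6. The CTB P6B8 libraries were all above the controls, by a small margin, and the other groups overlapped them. Its log2 fold change against control was 0.32 ± 0.16 (adjusted p = 0.107) with AI2.2-A, 0.37 ± 0.17 (adjusted p = 0.083) with CTB P6B8 and 0.04 ± 0.16 (adjusted p = 0.896) with MTS P5D6. The CTB P6B8 value passed the threshold under total count scaling (adjusted p = 0.0289) and without control replicate 4 (adjusted p = 0.0436), and the AI2.2-A value under total count scaling (adjusted p = 0.0254). The log2 ratio of copy (a) to copy (b) averaged 5.09 in the controls (5.01 to 5.16), 4.85 in the AI2.2-A libraries (4.33 to 5.19), 4.92 in the CTB P6B8 libraries (4.73 to 5.06) and 5.47 in the MTS P5D6 libraries (5.20 to 6.02). The MTS P5D6 libraries had the higher ratios, all above the highest control.

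PRR95, a grass member of the branch that holds PRR5 and PRR9 of Arabidopsis, separated MTS P5D6 from the other groups. It stood at 197, 229, 240.1 and 263 CPM in the controls, at 225, 230.2, 279 and 357 CPM with AI2.2-A, at 334, 241 and 330.4 CPM with CTB P6B8 and at 494, 514, 426 and 483 CPM with MTS P5D6. Every MTS P5D6 library was above every other library, whereas AI2.2-A and CTB P6B8 each had libraries within the control range. Group means were 232 ± 27.3 CPM (SD, n = 4) in the controls, 273 ± 61.3 (n = 4), 302 ± 52.8 (n = 3) and 479 ± 37.8 (n = 4). PRR95 rose with MTS P5D6 by 1.04 ± 0.14 on the log2 scale (adjusted p = 1.9e-05). Its value was 0.23 ± 0.14 with AI2.2-A (adjusted p = 0.188) and 0.38 ± 0.15 with CTB P6B8 (adjusted p = 0.0519). The CTB P6B8 value lay at the threshold: it was called under 14 of 25 alternatives, and its adjusted p ran from 0.0121 under total count scaling to 0.183 without CTB P6B8 replicate 1. Under total count scaling the AI2.2-A value was called as well (0.36, adjusted p = 0.0356).

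GIGANTEA encodes a large plant-specific protein of the late day that, in Arabidopsis, stabilises the photoreceptor ZEITLUPE and works with FKF1 to turn on the flowering regulator CONSTANS. It stood at 119, 144, 168 and 167 CPM in the controls, at 278, 219.6, 388 and 357 CPM with AI2.2-A, at 289, 242 and 319 CPM with CTB P6B8 and at 466, 492, 406 and 437 CPM with MTS P5D6. All exposed libraries were above all controls, and all MTS P5D6 libraries were above all other libraries. Group means were 149 ± 23.0 CPM (SD, n = 4) for the controls, 311 ± 76.2 (n = 4) for AI2.2-A, 283 ± 38.8 (n = 3) for CTB P6B8 and 450.3 ± 36.8 (n = 4) for MTS P5D6. The log2 fold change against control was 1.05 ± 0.16 (adjusted p = 5.73e-05) with AI2.2-A, 0.92 ± 0.16 (adjusted p = 0.000337) with CTB P6B8 and 1.59 ± 0.16 (adjusted p = 8.6e-07) with MTS P5D6. Over 25 alternatives these values ran from 0.93 to 1.19, 0.83 to 1.03 and 1.50 to 1.70, and each alternative kept the call.

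ELF3 is the scaffold of the evening complex, which represses daytime clock genes and growth genes at night in Arabidopsis. ELF3-like 2 stood at 185, 217, 247 and 250.3 CPM in the controls, at 146, 151, 168 and 217 CPM with AI2.2-A, at 203, 194 and 199 CPM with CTB P6B8 and at 272, 248, 256 and 270.3 CPM with MTS P5D6. AI2.2-A replicates 1 to 3 were below all controls and replicate 4 lay within them. The CTB P6B8 libraries were inside the control range, and the MTS P5D6 libraries reached from just inside that range to above it. ELF3-like 2 fell with AI2.2-A (log2 fold change -0.40 ± 0.11, adjusted p = 0.00879). Its value was -0.18 ± 0.12 with CTB P6B8 (adjusted p = 0.257) and 0.22 ± 0.11 with MTS P5D6 (adjusted p = 0.121), the latter called without AI2.2-A replicate 4, whose spread enters the shared fit (adjusted p = 0.0468), and when only those groups were fitted (adjusted p = 0.0298).

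ELF4-LIKE 4 is a relative of ELF4, the small protein that binds ELF3 in the evening complex. It stood at 13.5, 14.4, 16.3 and 16.3 CPM in the controls, at 15.8, 19.0, 16.3 and 17.1 CPM with AI2.2-A, at 20.3, 21.6 and 24.4 CPM with CTB P6B8 and at 20.8, 17.9, 19.6 and 20.3 CPM with MTS P5D6. The CTB P6B8 and MTS P5D6 libraries were all above the controls, and the AI2.2-A libraries overlapped them. ELF4-LIKE 4 rose with CTB P6B8 (log2 fold change 0.55 ± 0.10, adjusted p = 0.000338) and with MTS P5D6 (0.38 ± 0.09, adjusted p = 0.00287), and stood at 0.17 ± 0.09 with AI2.2-A (adjusted p = 0.139). The AI2.2-A value was called under total count scaling (0.30, adjusted p = 0.012).

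**Figure D2:**
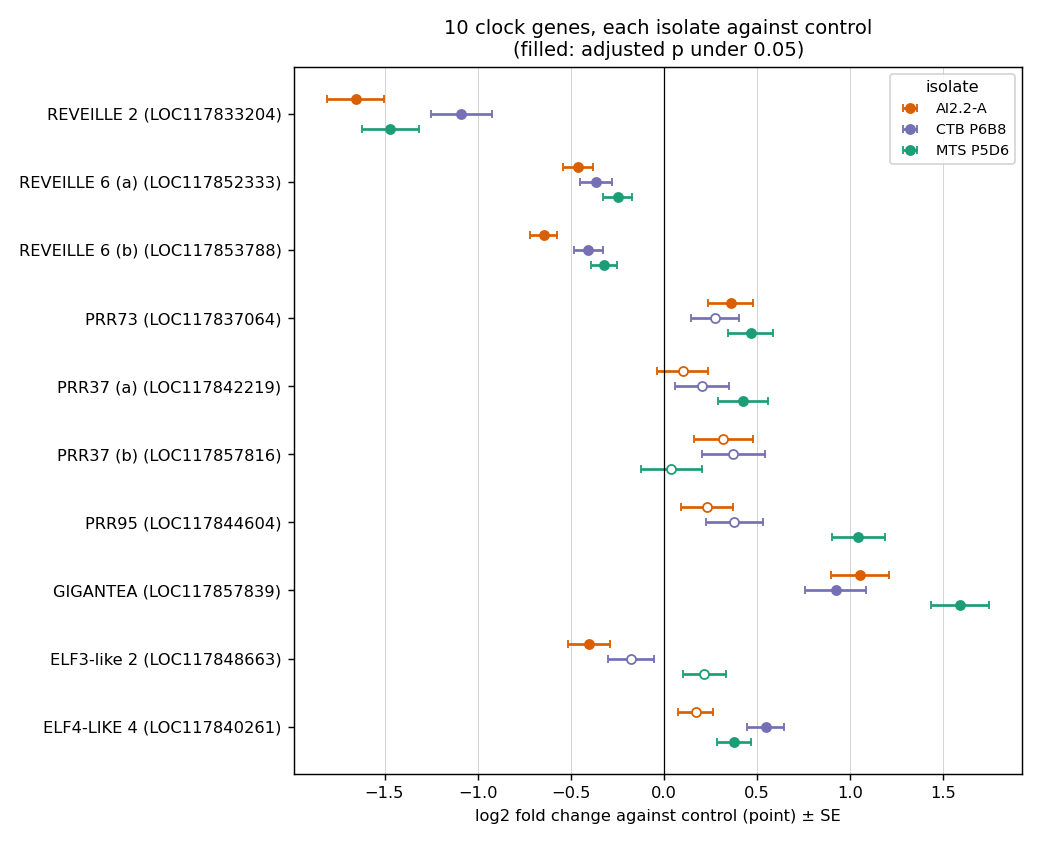
Log2 fold change of the 10 clock genes in each isolate against the mock control, with bars for the standard error, filled points for genes called at an adjusted p under 0.05 and open points for the rest. REVEILLE 2 lies between -1.65 and -1.09 and GIGANTEA between 0.92 and 1.59, while ELF3-like 2 runs from -0.40 with AI2.2-A to 0.22 with MTS P5D6.

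Counted over the 10 genes, 6 were called with AI2.2-A (2 higher, 4 lower), against 47.7% of all genes tested (23.4% higher, 24.3% lower). With CTB P6B8 5 of 10 were called (2 higher, 3 lower), against 45.4% of all genes (22.6% higher, 22.7% lower), and with MTS P5D6 8 of 10 (5 higher, 3 lower), against 52.2% (23.9% higher, 28.3% lower). For AI2.2-A and CTB P6B8 the share of clock genes called was near that of the whole transcriptome. Under total count scaling the counts were 9, 8 and 8 of 10, with 9613, 9195 and 10529 of all genes called. The exposed and control libraries did not overlap for 4 of 10 genes with AI2.2-A (43.8% of all genes), 6 of 10 with CTB P6B8 (50.0%) and 8 of 10 with MTS P5D6 (47.3%). The median size of the log2 fold change over the 10 genes was 0.38, 0.38 and 0.40 with the isolates in the same order, beside 0.31, 0.32 and 0.36 over all genes tested. Ranked by size, REVEILLE 2 was within the leading 4.22%, 10.2% and 7.09% of all genes tested, and GIGANTEA within the leading 10.4%, 13.5% and 5.96%. PRR95 came next, within the leading 13.6% with MTS P5D6.

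The spread between libraries of a group differed among the 10 genes. The biological coefficient of variation was 0.073 for REVEILLE 6 (b), 0.0796 for REVEILLE 6 (a) and 0.0874 for ELF4-LIKE 4, below the median of 0.116 over all genes. It was 0.154 for GIGANTEA, 0.149 for REVEILLE 2 and 0.142 for PRR95. Several genes deviated in the same libraries: CTB P6B8 replicate 2 had the lowest value of its group for PRR73, PRR37 (a), PRR95 and GIGANTEA, and control replicate 1 had the highest REVEILLE 2 and the lowest GIGANTEA, PRR95 and ELF3-like 2 of the controls.

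GIGANTEA and PRR95 were also set against REVEILLE 2 library by library. The log2 ratio of GIGANTEA to REVEILLE 2 within a library was 0.41, 0.80, 1.13 and 1.21 in the controls, 3.54, 3.03, 4.06 and 3.67 in the AI2.2-A libraries, 2.86, 2.54 and 3.32 in the CTB P6B8 libraries and 4.05, 4.32, 4.19 and 3.40 in the MTS P5D6 libraries. The lowest exposed library was thus above the highest control by more than the whole range of the controls, while AI2.2-A overlapped both other isolates and CTB P6B8 and MTS P5D6 did not overlap. Every exposed library already lay below the controls for REVEILLE 2 and above them for GIGANTEA. The separation of their ratio from the controls follows from that and is not a further result. The log2 ratio of PRR95 to REVEILLE 2 averaged 1.53 ± 0.31 (SD, n = 4) in the controls, 3.40 ± 0.28 (n = 4) in the AI2.2-A group, 2.99 ± 0.42 (n = 3) in the CTB P6B8 group and 4.08 ± 0.37 (n = 4) in the MTS P5D6 group. PRR95 alone was not called with AI2.2-A or CTB P6B8 (log2 fold change 0.23 and 0.38), where REVEILLE 2 stood at -1.65 and -1.09. The PRR95 ratio restates the levels of its genes and is not a further result either. Each ratio is a difference of log2 CPM values and is not scaled for the length of the genes, so it is read between libraries and not as the relative amount of the transcripts.

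**Figure D3:**
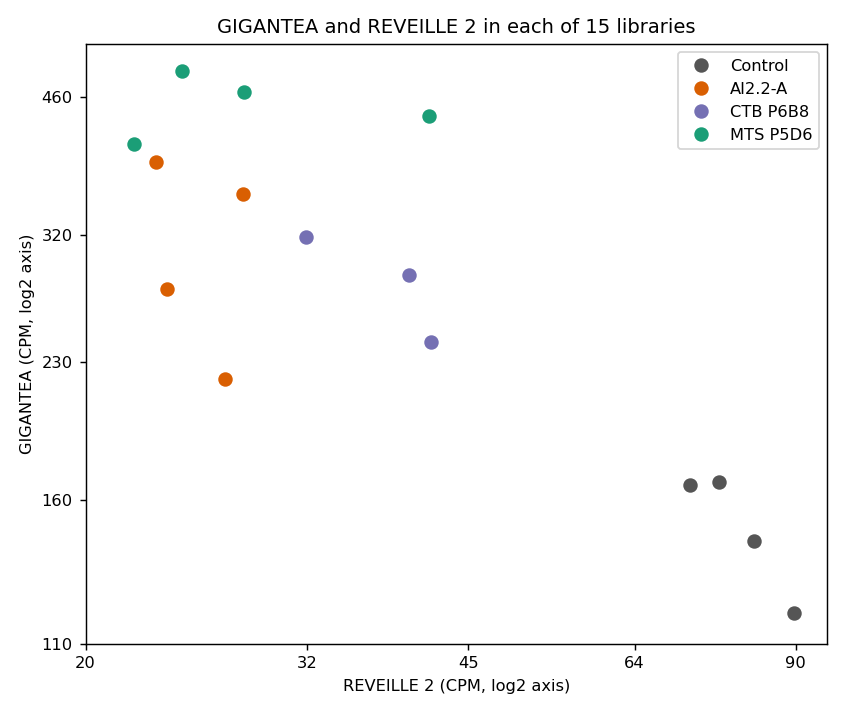
GIGANTEA against REVEILLE 2, both in CPM on log axes, with 1 point per library coloured by group. The 4 controls lie at 71.9 to 89.8 CPM of REVEILLE 2 and 119 to 168 CPM of GIGANTEA, and the 11 exposed libraries lie at 22.2 to 41.6 and 219.6 to 492 CPM.

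Set against each other, the isolates differed most between AI2.2-A and MTS P5D6, for the 10 clock genes as for all genes tested. There 5 of 10 clock genes were called, all lower with AI2.2-A, near the share of 45.2% of all genes tested (23.8% higher, 21.4% lower). The median size of the log2 difference was 0.30 over the 10 genes and 0.30 over all genes. ELF3-like 2 differed by -0.62 ± 0.11 on the log2 scale (adjusted p = 0.000451), PRR95 by -0.81 ± 0.14 (adjusted p = 0.000286), GIGANTEA by -0.54 ± 0.15 (adjusted p = 0.00951) and REVEILLE 6 (b) by -0.32 ± 0.07 (adjusted p = 0.00179). For these 4 genes the libraries of the isolates did not overlap, beside 37.4% of all genes. REVEILLE 6 (a) differed by -0.21 ± 0.08 (adjusted p = 0.039) and overlapped. That last call was lost under 7 of 25 alternatives, with an adjusted p of up to 0.218 under total count scaling, and without AI2.2-A replicate 1 (0.109), replicate 2 (0.0967) or replicate 3 (0.0702) or MTS P5D6 replicate 4 (0.139). REVEILLE 2, although far below control with both, differed between them by -0.19 ± 0.15 (adjusted p = 0.342, 95% interval -0.52 to 0.15). ELF4-LIKE 4 differed by -0.20 ± 0.09 (adjusted p = 0.0755) and was called under 5 of 25 alternatives.

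Between CTB P6B8 and MTS P5D6, 3 of 10 were called, all lower with CTB P6B8, against 26.3% of all genes (15.2% higher, 11.1% lower). They were GIGANTEA (-0.67 ± 0.17, adjusted p = 0.00859), PRR95 (-0.67 ± 0.15, adjusted p = 0.00551) and ELF3-like 2 (-0.40 ± 0.12, adjusted p = 0.0277). These 3 did not overlap between the isolates, beside 33.1% of all genes, and the ELF3-like 2 call was lost under 6 of 25 alternatives (adjusted p up to 0.0991). The value for REVEILLE 2 was 0.38 ± 0.16 (adjusted p = 0.0945), and it was 0.60 (adjusted p = 0.00326) without MTS P5D6 replicate 4, the library with the highest REVEILLE 2 of its group, and 0.45 (adjusted p = 0.0498) under total count scaling.

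AI2.2-A and CTB P6B8 differed least, for the clock genes as for all genes tested. Only REVEILLE 2 (-0.57 ± 0.16, adjusted p = 0.0368) and ELF4-LIKE 4 (-0.38 ± 0.10, adjusted p = 0.0225) were called, both lower with AI2.2-A, against 10.4% of all genes (4.53% higher, 5.86% lower). Neither overlapped between the isolates, beside 21.6% of all genes. The REVEILLE 2 call was lost without AI2.2-A replicate 1 (adjusted p = 0.095), AI2.2-A replicate 3 (0.0892), CTB P6B8 replicate 1 (0.099) or CTB P6B8 replicate 2 (0.148). The ELF4-LIKE 4 call was lost without AI2.2-A replicate 1 (0.0711), AI2.2-A replicate 3 (0.0596), CTB P6B8 replicate 2 (0.0624) or CTB P6B8 replicate 3 (0.0844). ELF3-like 2 differed by -0.22 ± 0.12 (adjusted p = 0.254), and by -0.36 (adjusted p = 0.03) without AI2.2-A replicate 4. GIGANTEA differed by 0.13 ± 0.17 (adjusted p = 0.648, 95% interval -0.23 to 0.50).

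**Figure D4:**
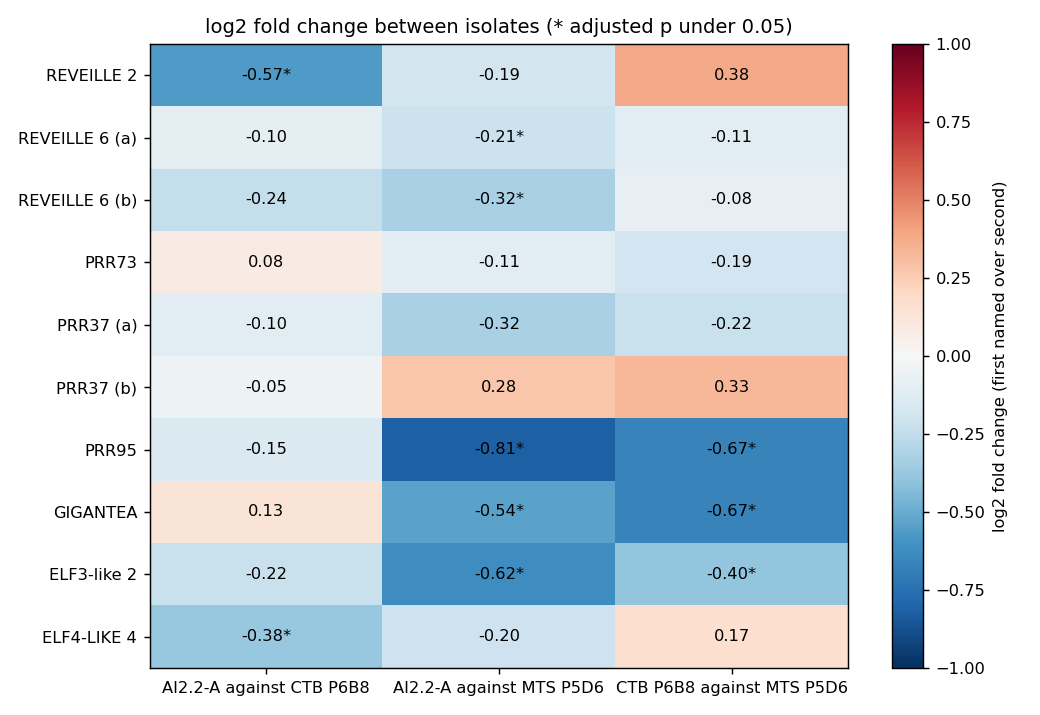
Log2 difference of each of the 10 clock genes between the isolates, pair by pair, as a colour map with the value printed in each cell and a star where the adjusted p was under 0.05. PRR95, GIGANTEA and ELF3-like 2 are lower with AI2.2-A and with CTB P6B8 than with MTS P5D6, by -0.81 to -0.40, and AI2.2-A and CTB P6B8 have 2 starred cells between them.

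In the authors' deposited table the same 10 genes were called 6 times for AI2.2-A against control (2 higher, 4 lower), 6 times for CTB P6B8 (3 higher, 3 lower) and 9 times for MTS P5D6 (6 higher, 3 lower). Against control, the calls found in the authors' deposited table and not in the fit to the counts were PRR95 with CTB P6B8 (log2 fold change 0.42, adjusted p = 0.0127) and ELF3-like 2 with MTS P5D6 (0.30, adjusted p = 0.0214). Between the isolates the authors' deposited table calls 7 of the 10 for AI2.2-A against MTS P5D6, with PRR37 (a) (-0.35, adjusted p = 0.0272) and ELF4-LIKE 4 (-0.23, adjusted p = 0.0403) beyond the 5 above. For CTB P6B8 against AI2.2-A the authors' deposited table calls 3, with REVEILLE 6 (b) (0.24, adjusted p = 0.0345) beyond the 2 above, and for CTB P6B8 against MTS P5D6 it calls 3. For REVEILLE 2 the authors' deposited table gives -1.59, -1.02 and -1.37 for the isolates in the order above, and for GIGANTEA 1.01, 0.88 and 1.57.

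Beyond the 10, 23 further genes carry a clock annotation, of which 18 were tested. Of these, 3 were higher and 11 lower with AI2.2-A (median log2 fold change -0.37), 3 higher and 11 lower with CTB P6B8 (-0.35) and 5 higher and 10 lower with MTS P5D6 (-0.33). Beside these stand the shares over all genes tested given above, and the medians over all genes were -0.0047, 0.0025 and -0.051.

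In the dawn class, CCA1 (LOC117861503), the MYB-like repressor at the centre of the loop, stood at 4949 to 5145 CPM in the controls, 2127 to 2333 in the AI2.2-A libraries, 2087 to 2384 in the CTB P6B8 libraries and 1646 to 1917 in the MTS P5D6 libraries. It fell by 1.17 ± 0.08, 1.17 ± 0.09 and 1.50 ± 0.08 on the log2 scale (adjusted p = 6.25e-08, 2.71e-07 and 5.77e-09). A further REVEILLE 6 gene (LOC117866937) stood at 76.9 to 82.1 CPM in the controls, 43.1 to 47.9, 43.2 to 44.1 and 34.8 to 38.4 CPM with the isolates, and fell by 0.77, 0.86 and 1.09 on the log2 scale (largest adjusted p = 1.89e-07). In contrast with the REVEILLE 6 pair above, for this gene MTS P5D6 had the lowest levels. No library of any isolate reached the controls for CCA1 or for this REVEILLE 6.

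Of the evening and photoperiod class, 2 genes carry the annotation PCL1, after the Arabidopsis gene also known as LUX, the DNA-binding member of the evening complex, and they moved in opposite directions. The scarcer (LOC117855098) was the one that rose. Its counts summed to 27 over the 4 controls, 73 over the 4 AI2.2-A libraries, 122 over the 3 CTB P6B8 libraries and 312 over the 4 MTS P5D6 libraries. This gene rose by 1.04 ± 0.28, 2.16 ± 0.27 and 3.39 ± 0.24 on the log2 scale (adjusted p = 0.00576, 1.6e-05 and 4.97e-08), and AI2.2-A was lower than CTB P6B8 by -1.11 (adjusted p = 0.00881). The other (LOC117858068), chosen after its values were seen, stood at 7.36 ± 0.98 CPM (SD, n = 4) in the controls and 4.55 ± 0.99 (n = 4), 5.19 ± 0.41 (n = 3) and 5.70 ± 1.09 (n = 4) with the isolates. It fell by 0.70 and 0.51 on the log2 scale with AI2.2-A and with CTB P6B8 (adjusted p = 0.00314 and 0.0328), and its value with MTS P5D6 was -0.37 (adjusted p = 0.0782). The adagio genes encode blue light receptors of the ZEITLUPE family, which tag clock proteins for breakdown. Adagio-like 3 (LOC117866417) rose by 1.02, 1.27 and 2.38 on the log2 scale (largest adjusted p = 0.000331), from 5.06 to 7.34 CPM in the controls to 26.7 to 34.8 CPM with MTS P5D6. Adagio-like 1 (LOC117852630) moved the other way, by -0.54, -0.42 and -0.26 (largest adjusted p = 0.00123). HEADING DATE 3B (LOC117856904), which carries the rice name of an ELF3 homolog, stood at 128 to 138 CPM in the controls and 66.1 to 89.7 CPM in the exposed libraries, and fell by 0.82, 0.96 and 0.70 on the log2 scale (largest adjusted p = 1.63e-06). TIME FOR COFFEE (LOC117845150), known in Arabidopsis for a part in keeping the clock's amplitude, fell by 0.84, 0.96 and 0.71 (largest adjusted p = 0.000109). A gene annotated as period circadian protein-like (LOC117847558), scarce at 3.44 to 3.86 CPM in the controls, fell by 1.41, 1.05 and 0.90 (largest adjusted p = 0.00031). Its place among the clock genes rests on the word circadian in that annotation alone, and a part in the plant clock was not tested.

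**Figure D5:**
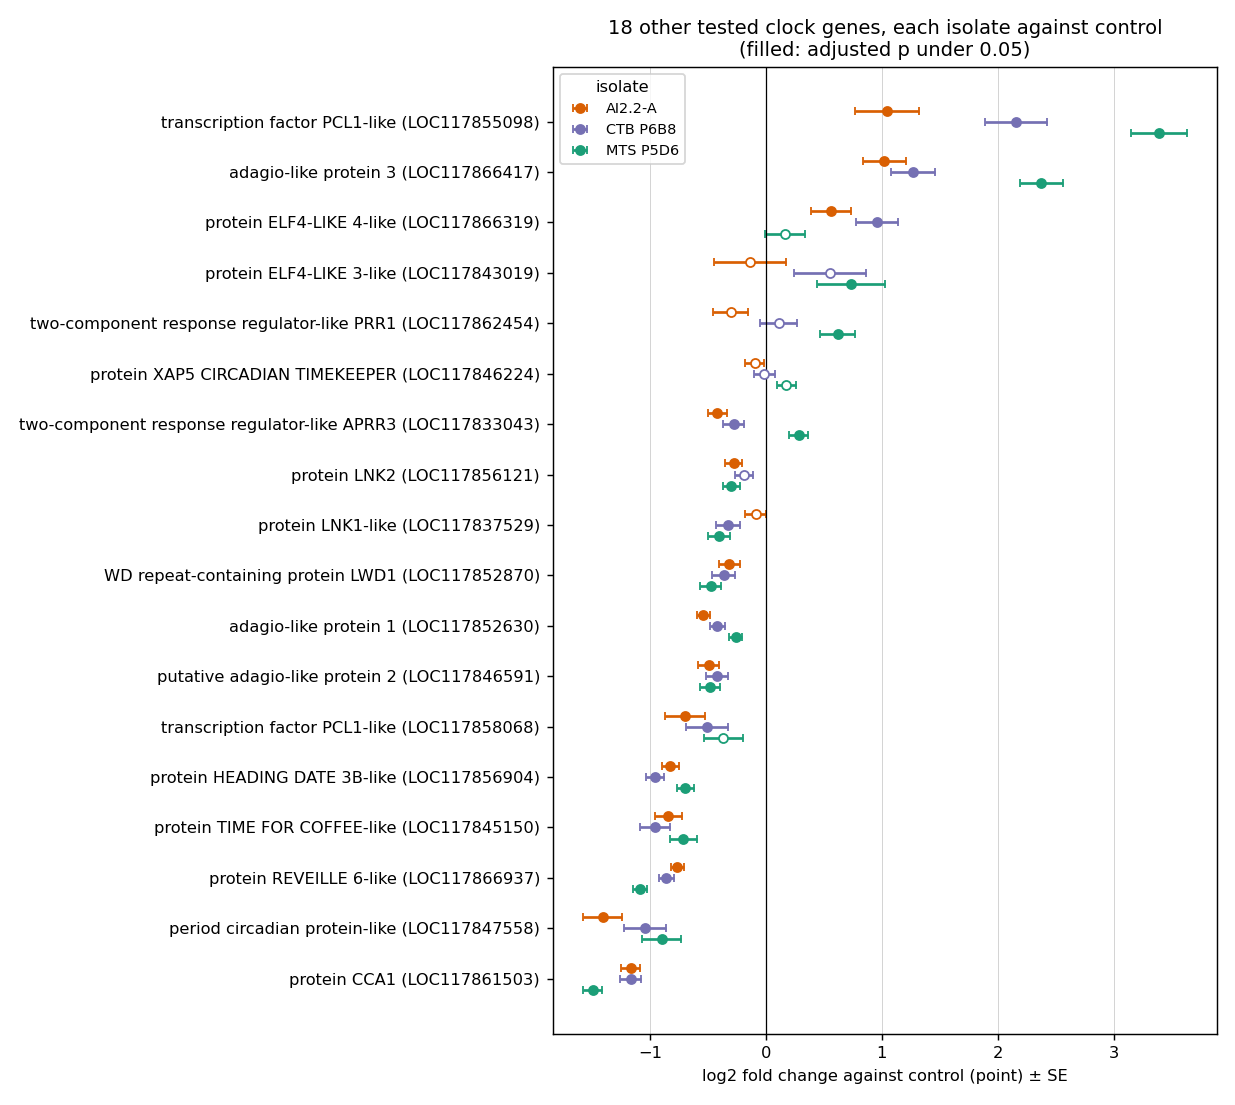
Log2 fold change against the mock control of the 18 tested clock-annotated genes outside the 10, by isolate, with bars for the standard error and filled points for an adjusted p under 0.05. Of the 8 genes named for the smallest adjusted p, PCL1 LOC117855098 (1.04 to 3.39) and adagio-like 3 (1.02 to 2.38) lie on the higher side. The other 6 of these, CCA1 (-1.50 to -1.17) among them, lie on the lower side. Of all 18, 3 were called higher and 11 lower with AI2.2-A, 3 and 11 with CTB P6B8, and 5 and 10 with MTS P5D6.

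The genes whose levels ran closest to each clock gene over all 15 libraries were found by the correlation of log2 CPM, which the shift between control and exposed libraries enters, and are given as a description. For REVEILLE 2 they were a cyclic dof factor 1-like gene (LOC117840493, r = 0.97) and a plasma membrane-associated cation-binding protein (LOC117842367, r = 0.97). GIGANTEA ran closest to LONG AFTER FAR-RED 3 (LOC117854754, r = 0.98) and an oligoribonuclease (LOC117862558, r = 0.97), and PRR95 to a mitochondrial carrier CoAc1-like gene (LOC117859176, r = 0.97) and an integrator complex subunit (LOC117855493, r = 0.97). REVEILLE 6 (b) ran with an autophagy-related gene (LOC117837482, r = 0.98) and adagio-like 1 (r = 0.97), and REVEILLE 6 (a) with an SRSF protein kinase (LOC117842137, r = 0.97) and a GATA transcription factor (LOC117838390, r = 0.96). ELF3-like 2 ran with a trehalose-phosphate synthase (LOC117841003, r = 0.97) and FAD synthase (LOC117858328, r = 0.95). For PRR73, the PRR37 genes and ELF4-LIKE 4 the closest genes reached r = 0.92, 0.93, 0.90 and 0.91. Among the 10 themselves, the REVEILLE 6 pair had r = 0.91, GIGANTEA and PRR95 0.86, REVEILLE 2 and GIGANTEA -0.84, and the PRR37 pair -0.08.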

How the data were processed

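The 15 libraries were made from total RNA of shoots with a stranded total RNA kit, per the labels' protocols. FastQC, Trimmomatic 036, HISAT2, featureCounts and DESeq2 1.6.3 are named in the submitters' processing notes. For the genome build, annotation and strand setting the sources used here give nothing, so genes that overlap or are nearly identical may share counts, and no coordinates or sequences are printed. The authors deposited raw counts for 28032 genes, of which 2690 had 0 counts throughout. They also deposited tables of their 6 comparisons, which hold a test score, a mean normalized signal, log2 fold changes with standard errors, and a p-value column that equals the adjusted p-value in 100% of lines. Gene names came from those deposited tables.

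The tests used edgeR 4.0.16 under R 4.3.3 on the counts (filterByExpr, TMM scaling, quasi-likelihood F test, 20310 genes, 15 libraries in a shared fit of 4 groups without a block). CPM printed are TMM-scaled with no prior count, and correlations used log2 CPM with a prior count of 2. Alternatives used limma 3.58.1, DESeq2 1.42.0, other scalings, filters and thresholds, the compared groups alone, a replicate block and leaving out libraries. The 21 pairs of libraries within groups had chi-square values of 2.69 to 21.4 times their degrees of freedom, so none was counted as a repeat of another. Each standard error was the size of the log2 fold change divided by the square root of the F statistic. The 95% intervals used the t distribution on 11 residual degrees of freedom. The p-values came from the quasi-likelihood test itself, so an interval and a p-value can differ slightly. Intervals rest on the spread between libraries as fitted.

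The members, lists and tests were chosen with earlier results of these data known. Of other clock genes the 8 with the smallest adjusted p over the comparisons with control were named, of the photoperiod and light lists the 4 called in all 3 comparisons with the smallest of their largest adjusted p, and beside each member the 2 genes of highest correlation that had a mean log2 CPM of at least 1 and an informative description. Figures were drawn with matplotlib 3.10.9.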

Additional observations from a re-analysis of the deposited data

Results flagged for a closer look

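In 8 of 78 groups of 4 libraries with a printed mean or range, the highest or lowest library stood far from the other 3 relative to the range of the group. Chance alone flags about 1 in 20 such groups. Among the 10 clock genes, REVEILLE 6 (a) stood at 32.5 CPM in MTS P5D6 replicate 4 and at 27.6 to 27.8 CPM in the other 3 libraries of that group, and PRR37 (b) stood at 2.81 CPM in AI2.2-A replicate 3, beside 3.39 to 3.49 CPM. The REVEILLE 6 gene outside the 10 (LOC117866937) stood at 43.1 CPM in AI2.2-A replicate 3, beside 47.6 to 47.9 CPM, and adagio-like 1 (LOC117852630) at 79.5 CPM in AI2.2-A replicate 4, beside 72.2 to 72.9 CPM. The cyclic dof factor 1-like gene LOC117840493 stood at 20.2 CPM in AI2.2-A replicate 2, beside 15.3 to 15.8 CPM, and at 20.7 CPM in MTS P5D6 replicate 4, beside 15.4 to 16.3 CPM. Of the UVR8 genes, LOC117864521 stood at 107 CPM in MTS P5D6 replicate 1, beside 115 to 116 CPM, and LOC117857076 at 24.5 CPM in MTS P5D6 replicate 3, beside 25.9 to 26.0 CPM. REVEILLE 2 was also highest of its group in MTS P5D6 replicate 4, by a gap that did not pass the same limit.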

How the results depend on the processing

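Of 1500 alternative values for the log2 fold changes of the 10 genes, 1421 kept their side of the threshold, 28 lost the call, 51 gained it and 0 of those called changed direction; the cause of the changes was not tested. The count of clock genes called in CTB P6B8 against control moved from 5 to 8 under total count scaling (from 6 to 9 for AI2.2-A) and to 8 at an adjusted p under 0.1, and was 5 to 8 when a library was left out (8 without control replicate 4). Between AI2.2-A and CTB P6B8 it moved from 2 to 1 with only those groups fitted and to 0 at an adjusted p under 0.01, and was 0 to 4 when a library was left out (0 without AI2.2-A replicate 1, AI2.2-A replicate 3 or CTB P6B8 replicate 2, 1 without CTB P6B8 replicate 1, 4 without AI2.2-A replicate 4). Over all genes, 2110 were called between these isolates, 871 with only those groups fitted, 489 at an adjusted p under 0.01, 3549 at an adjusted p under 0.1 and 644 to 2464 with a library left out. Between CTB P6B8 and MTS P5D6 5347 were called, 2574 at an adjusted p under 0.01, 3345 to 5649 with a library left out and 2786 with a replicate block by the numbers of the sample descriptions. The replicate numbers did not pair the libraries: deviations of same-numbered libraries correlated at -0.15 to 0.14, with 1 of 21 pairs over 0.1, and 6 of 42 libraries were closest to their own number. With the replicate block 6, 7 and 8 clock genes were called against control for the isolates in the order of the report (6, 5 and 8 without it). The block by title numbers, and by description numbers, also took in REVEILLE 2 between CTB P6B8 and MTS P5D6 (adjusted p = 0.0464 and 0.00512) and PRR73 in CTB P6B8 against control (adjusted p = 0.0303 and 0.0188). Total count scaling moved the median over all genes, on the log2 scale, by 0.131 for AI2.2-A and 0.101 for CTB P6B8 against control, and 0.0987 between AI2.2-A and MTS P5D6; the share of calls that were higher moved from 49.0% to 67.6% and from 49.9% to 63.8% against control, and from 52.6% to 67.1% between AI2.2-A and MTS P5D6 and 57.9% to 72.7% between CTB P6B8 and MTS P5D6. Without AI2.2-A replicate 4 and CTB P6B8 replicate 3, a choice made after seeing the data, 6, 5 and 9 clock genes were called against control. The planned count of promoter motifs was not run, since no promoter sequences were used here. Groups of 3 or 4 libraries limit the precision, and the scarce PRR37 (b) and PCL1 (LOC117855098) rest on few counts. The count of 1 photoperiod gene called higher with MTS P5D6 was up to 3 under 9 alternatives, among them leaving out control replicate 4, CTB P6B8 replicate 3 or MTS P5D6 replicate 1.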

Other observations

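Of 27 genes annotated for the photoperiod output of the clock, which carries day length information to flowering, 24 were tested: 3 were higher and 17 lower with AI2.2-A, 3 and 12 with CTB P6B8 and 1 and 14 with MTS P5D6. Over all genes tested 23.4% were higher and 24.3% lower with AI2.2-A, 22.6% and 22.7% with CTB P6B8 and 23.9% and 28.3% with MTS P5D6, and these shares also stand beside the lists that follow. Cyclic dof factors repress CONSTANS early in the day in Arabidopsis and are targets of the FKF1 and GIGANTEA complex there. The cyclic dof factor 2-like gene LOC117858947 fell from 112 to 129.9 CPM in the controls to 58.9 to 81.8 CPM over the exposed libraries, by 0.72, 0.64 and 0.79 on the log2 scale, with the isolates in the order of the counts above (largest adjusted p = 6.65e-05). The cyclic dof factor 1-like genes LOC117840493 and LOC117840888 fell by 1.13, 0.68 and 1.11 and by 0.87, 0.47 and 0.60. RICE FLOWERING LOCUS T 1 (LOC117851868), named after a florigen of rice, had 8 counts summed over the 4 controls, 153 over the 4 AI2.2-A libraries, 66 over the 3 CTB P6B8 libraries and 88 over the 4 MTS P5D6 libraries, and rose with all 3 isolates (largest adjusted p = 0.000559). The other 2 tested genes of the florigen type, chosen after their values were seen, did not: FLOWERING LOCUS T-like LOC117844211, scarce at a mean of 1.10 CPM in the controls and 0.203, 0.092 and 0.169 CPM with the isolates, fell (adjusted p = 0.00203, 0.000753 and 0.00123), and RICE FLOWERING LOCUS T 1-like LOC117854714 had log2 values of -0.25, -0.05 and 0.39 that did not pass.

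Of 75 light signalling genes 71 were tested, and 3 were higher and 41 lower with AI2.2-A, 4 and 43 with CTB P6B8 and 6 and 36 with MTS P5D6. The list holds 36 FAR1-related genes, 33 of them tested, a large family in which most members have no known part in light signalling; of these 1 was higher and 20 lower, 1 and 24, and 1 and 16. COP1 (LOC117839617), a ubiquitin ligase that degrades light-signalling factors in the dark, fell by 0.60, 0.70 and 0.60 on the log2 scale, and a gene for its partner, SPA1-RELATED 4-like (LOC117857052), by 1.00, 1.07 and 1.01 (largest adjusted p = 2.78e-05). Of 10 tested genes annotated as the ultraviolet-B receptor UVR8, 1 was higher and 6 lower with AI2.2-A, 2 and 5 with CTB P6B8 and 3 and 3 with MTS P5D6. Those that the naming rule took fell, LOC117864521 by 0.47, 0.50 and 0.54 and LOC117857076 by 0.96, 0.78 and 1.08.

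Other clock-annotated genes, chosen after their values were seen, were called against control with some isolates only or in opposite directions. Such a pattern is not by itself a difference between isolates. PRR1 (LOC117862454), the grass counterpart of the Arabidopsis evening gene TOC1, rose with MTS P5D6 by 0.62 on the log2 scale (adjusted p = 0.0027), with values of -0.30 and 0.11 with AI2.2-A and CTB P6B8 that did not pass. APRR3 (LOC117833043) fell by 0.42 and 0.28 with AI2.2-A and CTB P6B8 and rose by 0.28 with MTS P5D6. In the edgeR test between isolates, APRR3 was lower with AI2.2-A and with CTB P6B8 than with MTS P5D6 (adjusted p = 1.21e-05 and 0.000511). AI2.2-A and CTB P6B8 did not separate for APRR3 (adjusted p = 0.327). A further ELF4-LIKE 4 gene (LOC117866319) rose by 0.56 and 0.96 with AI2.2-A and CTB P6B8 and stood at 0.16 with MTS P5D6.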
